A study of Mus musculus with 48 samples.

Results

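*Per1*, *Per2*, and *Per3*, the 3 Period genes of the mouse, were read in the tibialis anterior, a fast muscle of the lower hind limb, of mice with and without pancreatic tumors. They were chosen by gene name, and each name matched 1 of the 56748 genes in the deposited expression table. RNA sequencing covered 48 libraries, 1 per mouse, with 2 mice in each of 24 groups set by genotype, tumor, and circadian time. KPC mice had received 250000 KPC cells, a murine pancreatic cancer line, in 50 µl of PBS by injection into the pancreas, and control mice had received PBS alone. FoxP1SkmKO mice were homozygous for a floxed FoxP1 allele and carried ACTA1-Cre, which deletes in skeletal muscle fibers and leaves other cells of the muscle with an intact allele. The WT mice were FoxP1fl/fl mice by the study's design text and C57BL/6J by the sample labels, and these sources were not reconciled here. All mice were males of 39 to 55 weeks that had been held in a 12 h light and 12 h dark cycle with lights on at 06:00. They were then held in constant darkness, which had lasted 18 h at the first collection and longer at the later ones. Muscles were taken every 4 h from circadian time (CT) 18, which fell at midnight, to CT38, which fell at 20:00, so that CT30 was noon, and every time point came from different mice.

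Period proteins form the negative arm of the circadian clock. CLOCK and BMAL1 (gene *Arntl*) switch on Period and cryptochrome genes through E-boxes in their promoters, and the PER and CRY proteins then accumulate, enter the nucleus, and block CLOCK and BMAL1 until they are degraded. PER1 and PER2 carry most of this repression, whereas PER3 is largely dispensable for the rhythm itself. *Per1* is also known as a gene that responds quickly to signals from outside the clock, such as glucocorticoids, cAMP, and muscle activity.

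Library totals ran from 14480867 to 20787784 counts, with a median of 16602091. *Per1* had 162 to 2240 counts per library (median 752), *Per2* 33 to 664 (median 248), and *Per3* 377 to 1266 (median 695). The *Foxp1* transcript, counted over the whole gene, did not separate the genotypes. It ran from 0.430 to 0.971 FPKM in WT control mice and from 0.430 to 0.642 FPKM in FoxP1SkmKO control mice, with a log2 difference of −0.11 averaged over the 6 times (SE 0.07, edgeR adjusted p = 0.459), and genotype is therefore used below as labelled. Defining markers of fast muscle fibers summed to 48180 FPKM or more in every library, and 2 of the 3 pancreas markers were at 0 in all 48. The 3 liver markers, *Alb*, *Apoa1*, and *Ttr*, summed to at most 1.79 FPKM in WT control and 6.57 FPKM in WT KPC libraries. Their highest sums were 46.6 FPKM in FoxP1SkmKO control and 151.3 FPKM in FoxP1SkmKO KPC libraries, with medians of 0.51 and 0.26 FPKM. The part of such tissue in the Period values was not tested.

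The promoter sequences are shown because the 3 genes rose and fell together and because the factors that act on them are themselves measured below. Sequences came from the RefSeq promoter table (GRCm38.p6), which had entries for *Per1* and *Per3*, and each was located in the GRCm39 genome by exact match. Within the 250 bases before the start, *Per1* held 1 E-box, CACGTG, which began 166 bases before that start and is printed in capitals with 12 bases on either side (chr11:68989597-68989626, plus strand). This stretch lies inside the deposited span of *Per1* and in an annotated exon.
Per1: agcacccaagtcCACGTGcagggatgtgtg
The *Per3* window held 2 copies of the D-box TTATGTAA, the element read by the factors DBP, TEF, and HLF and by NFIL3, beginning 205 and 158 bases before the start. The 232 bases of this window that lie outside annotated exons are printed with both copies in capitals (chr4:151129141-151129372, minus strand).
Per3: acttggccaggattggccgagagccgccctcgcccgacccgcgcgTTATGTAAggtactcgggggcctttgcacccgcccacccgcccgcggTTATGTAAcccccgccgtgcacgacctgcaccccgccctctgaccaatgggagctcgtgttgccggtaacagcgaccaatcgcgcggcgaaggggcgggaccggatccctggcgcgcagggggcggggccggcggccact
Among 32851 promoter windows of the same length, searched on both strands, 6.02% held CACGTG and 0.819% held TTATGTAA. The variant E-box CACGTT (3.85% of windows), the cAMP response element TGACGTCA (1.55%), the forkhead motif TGTTTAC (3.17%), and the glucocorticoid response element (0.00913%) were also searched and were not found in these windows, and none of the motifs was found in a second *Per1* window. Both *Per1* windows lie inside the deposited span of the gene. The sequence before its deposited start, at chr11:68986043, was not searched, so these results do not cover it. A match is a run of letters and not a shown binding site.

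All 3 genes were transcribed at low to moderate levels that swung strongly over the day (plot of FPKM by circadian time). *Per1* (ENSMUSG00000020893; mm39, chr11:68986043-69000786, plus strand, merged exons of 5631 bases) had the highest mean, followed by *Per3* (ENSMUSG00000028957; chr4:151088109-151129122, minus strand, 9608 bases) and *Per2* (ENSMUSG00000055866; chr1:91343704-91387046, minus strand, 5856 bases). FPKM, the number of fragments per kilobase of gene scaled to the depth of the library, allows levels to be set against each other between genes. In WT control mice the mean over 12 mice of all times was 6.61 ± 4.65 FPKM (SD, n = 12) for *Per1*, 4.34 ± 1.90 FPKM for *Per3*, and 2.70 ± 2.08 FPKM for *Per2*, spreads that hold the daily swing. *Per3* shares its span with 1 other gene of the same strand, *Camta1*, so that reads in shared sequence could be assigned to either gene, whereas the spans of *Per1* and *Per2* overlap no other gene.

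In WT control mice *Per1* was lowest at CT26, the early subjective day (08:00), with 1.56 and 2.01 FPKM in the 2 mice, and highest at CT34 (16:00) with 16.2 and 13.5 FPKM. Between these times it stood at 8.29 and 8.88 FPKM at CT30, and it had returned to 7.38 and 7.17 FPKM by CT38. At the first 2 times *Per1* stood at 2.74 and 3.42 FPKM (CT18) and at 5.81 and 2.40 FPKM (CT22), where the mice of a pair differed most. *Per2* followed the same course with a deeper trough, from 0.305 and 0.633 FPKM at CT26 to 6.29 and 5.29 FPKM at CT34, and stayed high at CT38 with 3.46 and 5.62 FPKM. *Per3* moved from 2.12 and 2.39 FPKM at CT26 through 5.96 and 6.39 FPKM at CT30 to 6.97 and 6.86 FPKM at CT34, a smaller swing with close agreement between mice. For each of the 3 genes no mouse at CT18, CT22, or CT26 in this group reached the lowest value at CT30 or CT34. The highest value of the 12 mice exceeded the lowest 10.4 times for *Per1*, 20.7 times for *Per2*, and 3.29 times for *Per3*.

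**Figure D1:**
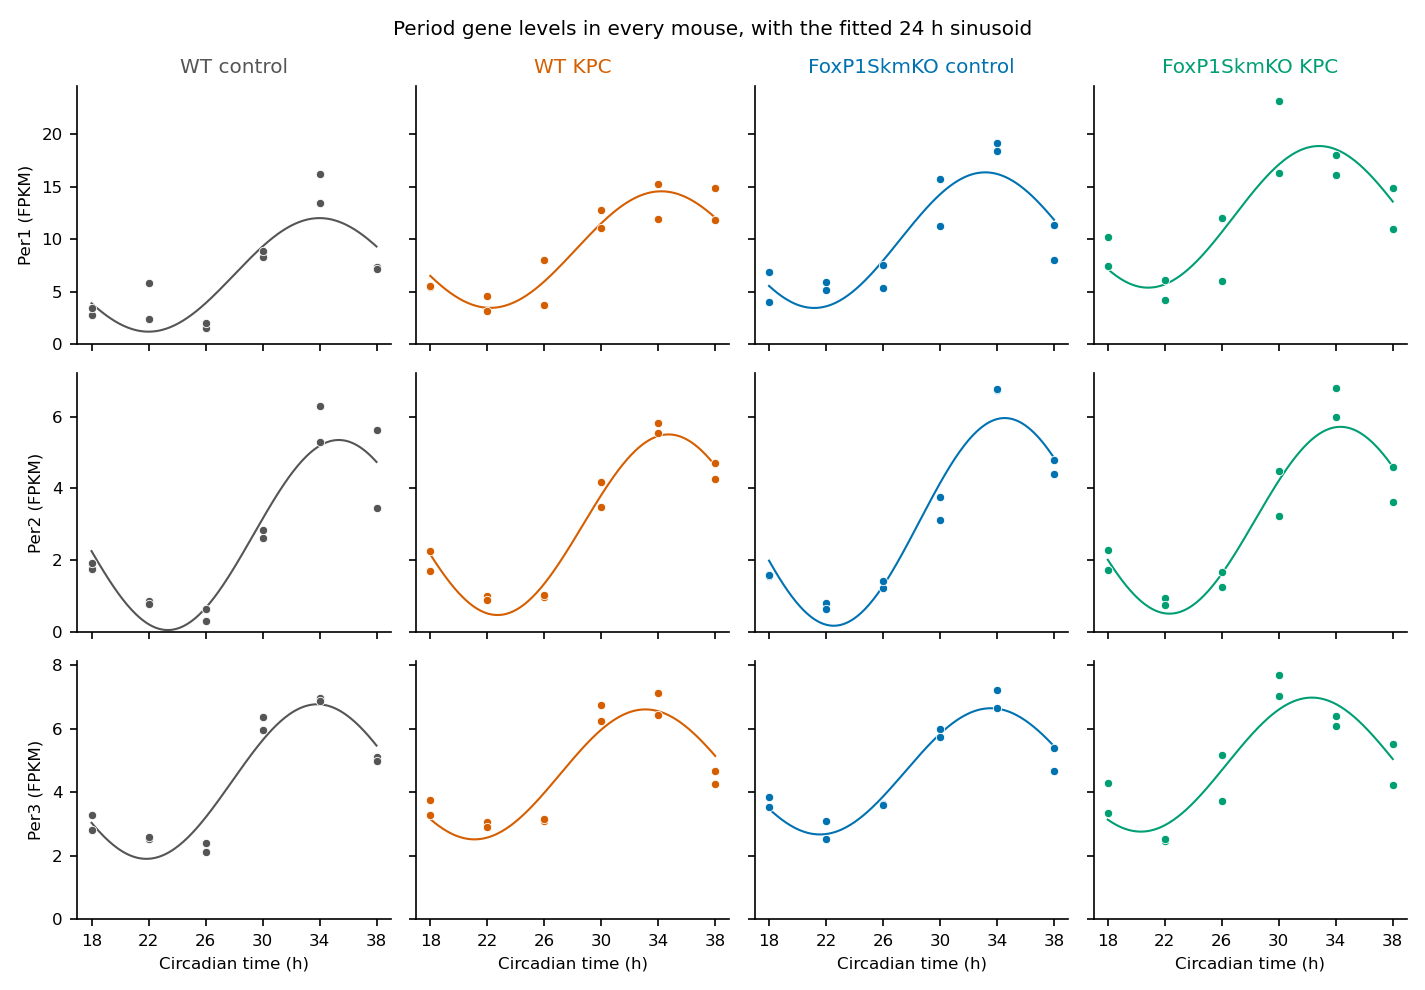
FPKM (vertical axis) of *Per1*, *Per2*, and *Per3* against circadian time in hours (horizontal axis) in the 4 combinations of genotype and tumor; each point is 1 mouse and the curves are the fitted 24 h sinusoids. Every mouse at CT18 to CT26 lies below every mouse at CT30 to CT38 for all 3 genes in 3 of the 4 combinations; in FoxP1SkmKO KPC mice *Per1* and *Per3* overlap, with a CT26 mouse at 12.0 and 5.17 FPKM and CT38 mice at 11.0 and 4.22 FPKM. The lowest pair of *Per1*, at 1.56 and 2.01 FPKM, is that of WT control mice at CT26.

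The lowest mouse stood higher in the other groups than in WT control mice, where it was at CT26 for all 3 genes. This did not hold at every time. At CT22 *Per3* was lower in FoxP1SkmKO KPC mice (2.45 and 2.51 FPKM) than in WT control mice (2.54 and 2.60 FPKM). Across 12 mice *Per1* ran from 3.16 to 15.2 FPKM in WT KPC mice (median 9.54), from 4.02 to 19.2 FPKM in FoxP1SkmKO control mice (median 7.81), and from 4.25 to 23.2 FPKM in FoxP1SkmKO KPC mice (median 11.5). The ratio of highest to lowest mouse was 4.82, 4.77, and 5.46 in these groups. *Per2* ran from 0.886 to 5.83 FPKM, from 0.632 to 6.76 FPKM, and from 0.748 to 6.80 FPKM in the same order. *Per3* ran from 2.89 to 7.14 FPKM, from 2.53 to 7.21 FPKM, and from 2.45 to 7.68 FPKM. When the 24 groups were ordered by their mean, *Per1* was highest in FoxP1SkmKO KPC mice at CT30 (16.3 and 23.2 FPKM), *Per2* in FoxP1SkmKO control mice at CT34 (6.73 and 6.76 FPKM), and *Per3* in FoxP1SkmKO KPC mice at CT30 (7.02 and 7.68 FPKM). For all 3 genes the lowest of the 24 groups was WT control at CT26. Most neighbors in this order overlapped, in 20 of 23 neighboring pairs for *Per1*, 18 for *Per2*, and 19 for *Per3*.

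A change over the 6 circadian times passed edgeR's quasi-likelihood test in all 4 groups of 12 mice for all 3 genes. Adjusted p-values ran from 1.01e-06 to 0.00109 for *Per1*, from 7.1e-13 to 9.25e-11 for *Per2*, and from 1.74e-11 to 4.02e-08 for *Per3*. By the same test 18.7% of the 15637 genes tested changed over time in WT control mice, 11% in WT KPC, 6.4% in FoxP1SkmKO control, and 5.99% in FoxP1SkmKO KPC mice. A 24 h sinusoid fitted to FPKM also passed the study's threshold of p under 0.01 for each gene in each group, where it did so for 4.92%, 4.22%, 4.07%, and 2.63% of all genes with varying values in the same order of groups. *Per1* had the largest p of the 3 genes in every group but WT KPC, with p = 0.00242 in WT control mice (F test of the sinusoid against a flat line, not an exact test, 12 mice) and p = 0.0104 without the second of these mice at CT34, and after adjustment over all genes *Per1* stayed under 0.05 only in WT KPC mice (adjusted p = 0.0400), while *Per2* stayed under it in all 4 groups and *Per3* in all but FoxP1SkmKO KPC mice (adjusted p = 0.125).

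*Per2* had the largest swing for its level and *Per3* the smallest. Fitted amplitude divided by mean level was 0.983 for *Per2* in WT control mice, 0.818 for *Per1*, and 0.562 for *Per3*. In the other groups this ratio was 0.838 to 0.946 for *Per2*, 0.556 to 0.651 for *Per1*, and 0.427 to 0.449 for *Per3*. On a log2(FPKM + 0.1) scale the fitted peak exceeded the trough 9.98 times for *Per2* in WT control mice and 6.27 to 8.07 times in the other groups, against 5.53 and 3.37 to 3.95 times for *Per1*, and 3.12 and 2.35 to 2.47 times for *Per3*. Peaks fell late in the subjective day. *Per2* peaked at CT 35.35 ± 0.45 (SE) in WT control mice, *Per1* at CT 34.0 ± 0.76, and *Per3* at CT 33.85 ± 0.42. In FoxP1SkmKO KPC mice the 3 peaks were at CT 34.33 ± 0.39, 32.83 ± 0.72, and 32.32 ± 0.60.

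Within a library the balance of the 3 genes shifted over the day. The ratio of *Per2* to *Per3* in WT control mice ran from 0.144 to 1.13 and followed a sinusoid with an amplitude of 1.07 ± 0.14 (SE) on the log2 scale that peaked at CT 37.01 ± 0.49, after the peak of either gene. In the other groups the same ratio peaked between CT 35.01 and CT 36.07 with amplitudes of 0.85 to 0.98. *Per1* stood above *Per2* in every one of the 48 libraries, by 1.28 to 9.36 times. The mean log2 ratio of *Per1* to *Per3* was 0.38 ± 0.15 (SE) in WT control, 0.88 ± 0.12 in WT KPC, 0.98 ± 0.11 in FoxP1SkmKO control, and 1.24 ± 0.08 in FoxP1SkmKO KPC mice. That of *Per2* to *Per3* ran only from −1.06 to −0.86. These ratios are descriptions and were not tested.

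Averaged over the 6 times, *Per1* was higher in KPC than in control muscle of WT mice, by 1.53 times (log2 difference 0.61, SE 0.14, 95% interval 0.34 to 0.89, edgeR adjusted p = 0.0159). Both KPC mice stood above both control mice at 4 of the 6 times, CT18, CT26, CT30, and CT38, and the mice overlapped at CT22 and CT34. *Per2* gave a smaller difference that did not pass (0.31, 95% interval 0.12 to 0.49, adjusted p = 0.0743) but did in DESeq2 (adjusted p = 0.0329), and *Per3* the smallest (0.12, 0.02 to 0.23, adjusted p = 0.235). Without the second WT KPC mouse of CT38 *Per1* no longer passed (0.58, adjusted p = 0.0505), and *Per2* passed without the second WT control mouse of CT26 (0.40, adjusted p = 0.0199) or of CT38 (0.37, adjusted p = 0.0301). So 1 of 3 Period genes passed where 1.79% of all genes tested did. Both KPC mice were above both control mice at 3 times for *Per2* and at 2 for *Per3*, against 19.5% of all gene and time combinations in this comparison, and below both at 1 time for *Per3*. Neutrophil markers moved with the same contrast: *S100a8* and *S100a9*, both released by neutrophils, rose in WT KPC mice by log2 2.83 and 2.06 (adjusted p = 0.0315 and 0.0269), while their whole list of 3 markers summed to no more than 2.81 FPKM in any WT library. *Col1a1*, a fibroblast collagen, fell by log2 0.91 (adjusted p = 0.0188). Of 4 endothelial markers *Vwf*, a clotting factor carrier, rose by 0.36 (adjusted p = 0.00242) and *Kdr*, a VEGF receptor, fell by 0.27 (adjusted p = 0.0412). The part of these cells in the Period values was not tested. Fewer cells of a type and less RNA per cell cannot be told apart in whole muscle.

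**Figure D2:**
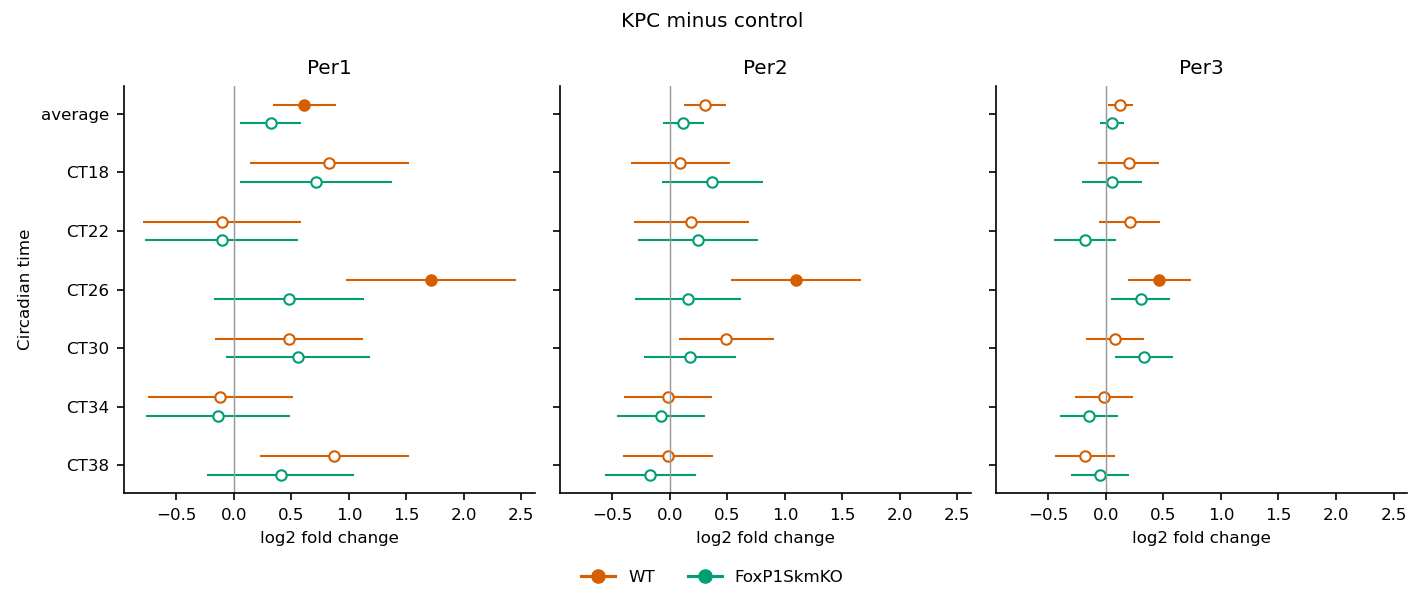
Log2 fold change of KPC minus control (horizontal axis, positive values are higher in KPC mice) for *Per1*, *Per2*, and *Per3* at each circadian time and averaged over the 6 times, in WT and FoxP1SkmKO mice; colors mark the genotypes, points are edgeR estimates, bars 95% intervals, and filled points passed an adjusted p of 0.05. The 3 filled points at CT26 in WT mice, at 1.71, 1.09, and 0.46, and that of averaged *Per1* at 0.61 are the only filled ones.

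At single times the differences that passed lay at CT26. *Per1* at CT26 was 1.56 and 2.01 FPKM in WT control mice and 7.99 and 3.72 FPKM in WT KPC mice, 3.28 times higher (log2 1.71, 95% interval 0.97 to 2.46, edgeR adjusted p = 0.00301). *Per2* was 0.305 and 0.633 FPKM against 0.969 and 1.02 FPKM, 2.13 times higher (log2 1.09, 0.53 to 1.66, adjusted p = 0.0130). *Per3* was 2.12 and 2.39 FPKM against 3.10 and 3.15 FPKM, 1.38 times higher (log2 0.46, 0.19 to 0.74, adjusted p = 0.0295). For all 3 genes both KPC mice stood above both control mice at this time, as they did for 25.7% of all genes tested. At CT26 4.64% of all genes tested rose in WT KPC mice, and over the 6 times pooled 1.2% of tests passed in either direction, almost all of them at CT26. At the other 5 times none of the 15 tests of the 3 genes passed (log2 −0.18 to 0.87, adjusted p 0.356 to 1), and 3 of them had an unadjusted p under 0.05.

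In FoxP1SkmKO mice the averaged difference of KPC minus control was 0.32 for *Per1* (95% interval 0.06 to 0.58, edgeR adjusted p = 0.283), 0.12 for *Per2* (−0.06 to 0.30, adjusted p = 0.639), and 0.05 for *Per3* (−0.06 to 0.16, adjusted p = 0.769), and none passed, although *Per1* did with no filter on low counts (adjusted p = 5.95e-09). The fit with no filter took the spread as fully shared between genes, and its SE for *Per1* was 0.047 against 0.13 in the main fit. In the main fit 0.428% of all genes tested passed. None of the 18 single-time tests of the 3 genes passed either (log2 −0.18 to 0.71, 3 with an unadjusted p under 0.05), against 0.0107% of all tests over the 6 times. At CT26 *Per1* was 5.38 and 7.55 FPKM in FoxP1SkmKO control mice and 6.07 and 12.0 FPKM in FoxP1SkmKO KPC mice, which overlapped. Both KPC mice stood above both control mice at 2 of 6 times for *Per1*, 1 for *Per2*, and 2 for *Per3*, where 18.6% of all gene and time combinations did, and below both at 1 time for *Per1* and 2 for *Per3*.

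A response seen in 1 genotype and not in the other is not by itself a difference between them, and the difference was tested directly. Averaged over the 6 times, the KPC effect in WT minus that in FoxP1SkmKO mice was 0.29 for *Per1* (95% interval −0.09 to 0.67, edgeR adjusted p = 0.835), 0.19 for *Per2* (−0.07 to 0.44, adjusted p = 0.839), and 0.07 for *Per3* (−0.08 to 0.22, adjusted p = 0.90). None of the 15637 genes passed this test (0%), with 1020 at an unadjusted p under 0.05, and DESeq2 passed none of the 3 Period genes. With no filter on low counts the model took the spread as fully shared between genes (infinite prior degrees of freedom), and *Per1* then passed with the same 0.29 (adjusted p = 0.00872). At CT26 the difference was 1.23 for *Per1* (95% interval 0.25 to 2.22, unadjusted p = 0.0158, edgeR adjusted p = 0.311) and 0.94 for *Per2* (0.21 to 1.67, unadjusted p = 0.0135, adjusted p = 0.293), so that both intervals lay above 0 but neither passed after adjustment over all genes. With 1 library left out at a time these values ran from 0.55 to 1.79 for *Per1* and from 0.47 to 1.52 for *Per2*, and neither passed in any of these fits. Of all single-time tests of this difference 0.0597% passed, and none of the 18 for the Period genes did.

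Genotype made a difference of similar size in control mice, in a contrast that uses the same WT control mice as the KPC comparison and is not independent of it. *Per1* was 1.68 times higher in FoxP1SkmKO than in WT control muscle averaged over the 6 times (log2 0.75, SE 0.13, 95% interval 0.48 to 1.02, edgeR adjusted p = 0.0012). Both FoxP1SkmKO mice stood above both WT mice at 5 of 6 times, the exception being CT22, where the 5.20 and 5.91 FPKM of FoxP1SkmKO mice overlapped the 5.81 and 2.40 FPKM of WT mice. *Per2* differed by 0.27 (0.09 to 0.46, adjusted p = 0.0933) and *Per3* by 0.16 (0.06 to 0.27, adjusted p = 0.0739), and neither passed. *Per1* passed with any 1 library left out. *Per2* passed without the second WT control mouse of CT26 (0.37, adjusted p = 0.0179) or of CT38 (0.34, adjusted p = 0.0254), and *Per3* passed without the second FoxP1SkmKO control mouse of CT22 (0.19, adjusted p = 0.0498) or the first of CT38 (0.18, adjusted p = 0.0458). Of all genes tested 3.44% passed this contrast. Both FoxP1SkmKO mice were above both WT mice at 3 times for *Per2* and at 2 for *Per3*, against 19.5% of all gene and time combinations, and below both at 1 time for *Per2*.

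**Figure D3:**
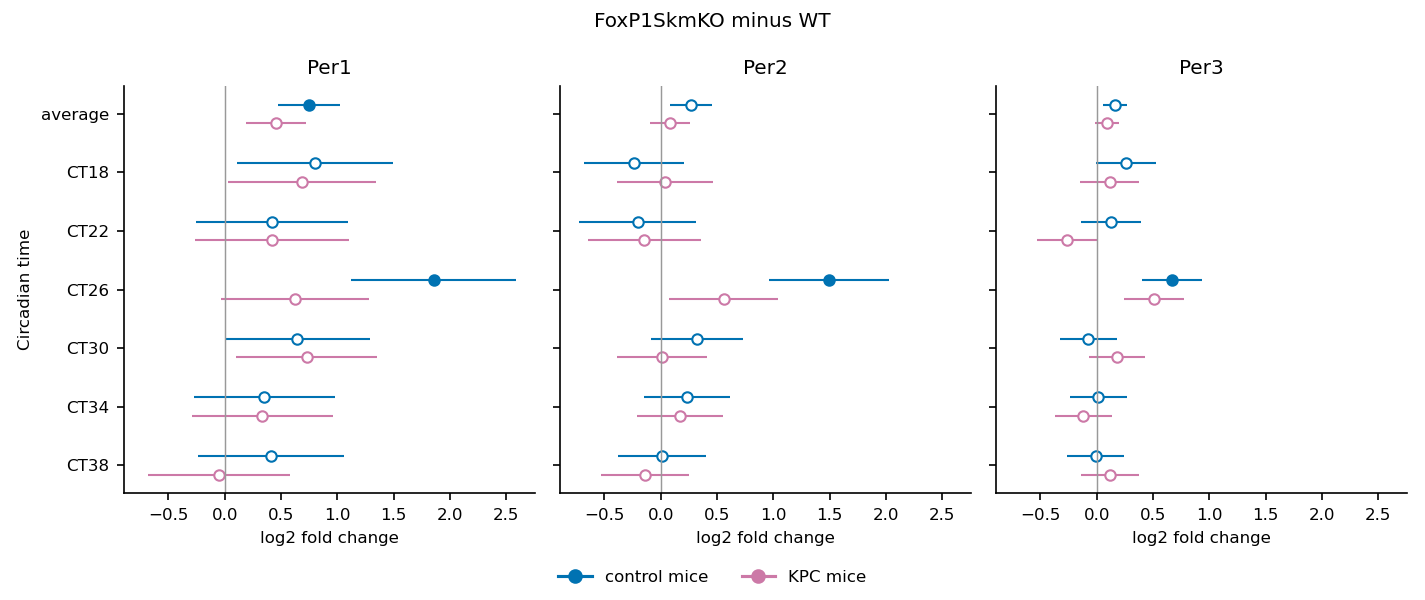
Log2 fold change of FoxP1SkmKO minus WT (horizontal axis, positive values are higher in FoxP1SkmKO mice) for *Per1*, *Per2*, and *Per3* at each circadian time and averaged, in control and KPC mice, marked by color; points are edgeR estimates, bars 95% intervals, and filled points passed an adjusted p of 0.05. In control mice the 3 points at CT26 (1.86, 1.5, and 0.67) and the average of *Per1* (0.75) are filled, and in KPC mice none is.

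At CT26 all 3 genes were higher in FoxP1SkmKO control than in WT control mice. *Per1* differed 3.62 times (5.38 and 7.55 against 1.56 and 2.01 FPKM, log2 1.86, 95% interval 1.12 to 2.59, edgeR adjusted p = 0.0017). *Per2* differed 2.82 times (1.22 and 1.41 against 0.305 and 0.633 FPKM, log2 1.5, 0.96 to 2.03, adjusted p = 6e-04). *Per3* differed 1.59 times (3.63 and 3.59 against 2.12 and 2.39 FPKM, log2 0.67, 0.40 to 0.94, adjusted p = 0.0019). Both FoxP1SkmKO mice stood above both WT mice for each of the 3, as they did for 25.9% of all genes tested. Of all genes tested 3.74% were higher in FoxP1SkmKO mice at this time, and 1.01% of all tests over the 6 times passed in either direction. The other 15 tests of the 3 genes did not pass (log2 −0.24 to 0.80, adjusted p 0.516 to 1, 2 of them with an unadjusted p under 0.05).

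In KPC mice no genotype difference of the 3 genes passed; whether it differed from that in control mice is the same contrast as the difference of KPC effects above, which did not pass. Averaged over the 6 times it was 0.46 for *Per1* (95% interval 0.19 to 0.72, edgeR adjusted p = 0.116), 0.08 for *Per2* (adjusted p = 0.784), and 0.09 for *Per3* (adjusted p = 0.548), while 0.32% of all genes passed. *Per1* passed without the first WT KPC mouse of CT26 (0.56, adjusted p = 0.0331), without the first FoxP1SkmKO KPC mouse of CT26 (0.53, adjusted p = 0.0364), and with no filter on low counts (0.46, adjusted p = 5.64e-19). The fit with no filter took the spread as fully shared between genes, and its SE for *Per1* was 0.047 against 0.13 in the main fit. In the main fit the 18 single-time tests ran from −0.26 to 0.73 on the log2 scale and none passed (4 with an unadjusted p under 0.05), against 0.0171% of all tests. The smallest unadjusted p was that of *Per3* at CT26 (0.51, 95% interval 0.24 to 0.77, edgeR unadjusted p = 0.000444, adjusted p = 0.299). With 1 library left out at a time this difference ran from 0.26 to 0.73, and with no filter on low counts it passed (0.52, edgeR adjusted p = 0.00612). Both FoxP1SkmKO mice were above both WT mice at 3 of 6 times for *Per1* and at 2 for *Per2* and *Per3*, where 18.5% of all gene and time combinations were, and below both at 2 times for *Per3*.

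The CT26 results of both comparisons rest on the same 2 WT control mice, which serve as the controls of each and are therefore not independent of each other. These mice had the lowest *Per1* and *Per3* of the study: none of the other 46 mice was below 2.01 FPKM for *Per1* or below 2.39 FPKM for *Per3*, and 1 of 46 was below 0.633 FPKM for *Per2*. The 6 other mice of CT26 ran from 3.72 to 12.0 FPKM for *Per1*, from 0.969 to 1.68 FPKM for *Per2*, and from 3.10 to 5.17 FPKM for *Per3*, whatever their genotype and tumor. Without the first WT control mouse of CT26 no CT26 call was left: the WT KPC differences became 1.52, 0.63, and 0.36 for *Per1*, *Per2*, and *Per3* (edgeR adjusted p = 0.161, 0.444, and 0.407) and the genotype differences 1.67, 1.04, and 0.57 (adjusted p = 0.133, 0.149, and 0.159). The second WT control mouse is then assumed to vary like the mice of other groups. Without that second mouse in turn, all CT26 calls were kept. Leaving out the first WT KPC mouse of CT26 also ended the calls of the KPC comparison at that time, with differences of 1.04, 1.11, and 0.45 (adjusted p = 0.184, 0.0689, and 0.139). Leaving out the second ended those of *Per2* and *Per3*, with differences of 1.03 and 0.43 (adjusted p = 0.0876 and 0.155).

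Other measurements also set the first of these 2 libraries apart. Over all genes 1121 of 15637 passed at CT26 in the WT KPC comparison and 943 in the genotype comparison of control mice, and 86 and 43 passed without the first of the 2 mice. That library had the highest sum of red cell markers of the 48, 298.6 FPKM, and of fast fiber markers, 66180 FPKM. The second had 221.7 and 60190 FPKM, which other groups exceeded. Red cell markers reached 275.1 FPKM in FoxP1SkmKO control mice, and fast fiber markers 64010 FPKM in FoxP1SkmKO KPC mice. Members of the fast fiber list did not move together at CT26: *Tnni2*, a fast troponin, was lower in WT KPC than in WT control mice (−0.41, adjusted p = 0.0103) and *Myh4*, a fast myosin heavy chain, was higher (0.36, adjusted p = 0.0434), at 7802 and 7564 FPKM in the 2 WT control mice. All 3 red cell markers, *Hbb-bs*, *Hba-a1*, and *Alas2*, which make or carry heme in blood cells, were detected, and their sum lay between 73.0 and 275.1 FPKM in the other libraries. The part of blood or of other differences between these libraries in the Period values was not tested. Averaged over the 5 times without CT26, *Per1* differed by 0.39 between KPC and control WT mice (edgeR adjusted p = 0.224) and by 0.53 between FoxP1SkmKO and WT control mice (adjusted p = 0.0414). The same averages were 0.15 and 0.03 for *Per2* (adjusted p = 0.575 and 0.958) and 0.06 and 0.06 for *Per3* (adjusted p = 0.768 and 0.712). The higher *Per1* of FoxP1SkmKO control muscle thus passed without CT26, and its higher level in WT KPC muscle did not. The 95% intervals, 0.23 to 0.82 and 0.10 to 0.69, overlap, and both contrasts use the same WT control mice. A difference between these 2 contrasts was not tested.

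**Figure D4:**
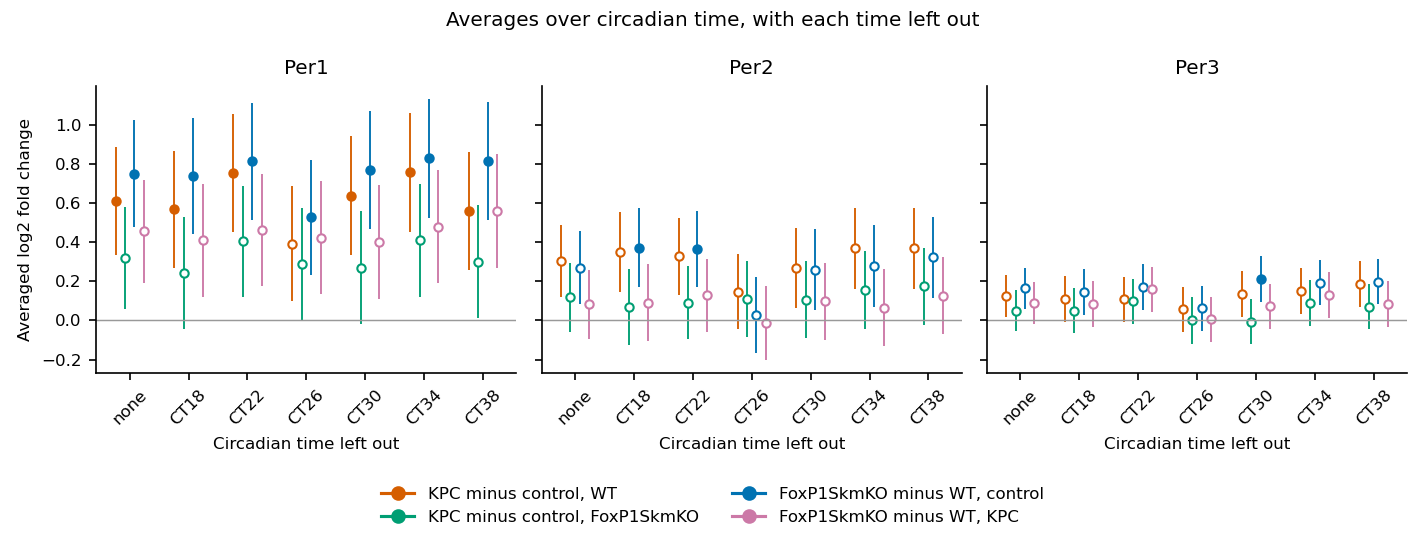
Averaged log2 fold change (vertical axis) over all 6 circadian times and with each time left out (horizontal axis) for KPC minus control in each genotype and FoxP1SkmKO minus WT in each condition, marked by color; points are edgeR estimates, filled where the adjusted p is under 0.05, and bars are 95% intervals. Without CT26 *Per1* falls from 0.61 to 0.39 for KPC minus control in WT mice and from 0.75 to 0.53 for FoxP1SkmKO minus WT in control mice, and *Per2* from 0.31 to 0.15 and from 0.27 to 0.03.

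No difference in timing between groups exceeded its error by much. Peak times in KPC and control WT mice differed by 0.21 h ± 0.92 (SE) for *Per1*, −0.63 h ± 0.51 for *Per2*, and −0.75 h ± 0.67 for *Per3*, where negative values are earlier in KPC mice. In FoxP1SkmKO mice the same differences were −0.34 h ± 0.95, −0.21 h ± 0.52, and −1.25 h ± 0.67. Between the genotypes, FoxP1SkmKO peaks were earlier by 0.28 to 1.38 h for all 3 genes in both conditions, with SEs of 0.46 to 0.98 h. With sampling every 4 h and 2 mice per time, shifts of this size could not be told from no shift. The test of a difference in rhythm, taken over amplitude and timing together, passed for none of the 3 genes in any of the 4 comparisons (edgeR adjusted p 0.581 to 0.997). The smallest unadjusted p-values were 0.0130 for *Per2* between the genotypes in control mice and 0.0470 for *Per2* between KPC and control WT mice. This test passed for 0% of all genes in 3 of the comparisons and for 0.0512% between KPC and control FoxP1SkmKO mice.

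Other clock genes peaked at set times around the Period genes (plot of peak times). The list held the activators, the cryptochromes and kinases that act with PER, the ubiquitin ligase subunits that degrade PER and CRY, the REV-ERB and ROR receptors, and the repressors and output factors of the clock, and 25 of its genes were measured. Of these, 10 passed the 24 h rhythm threshold in all 4 groups and 8 in none, with 15 in WT control, 13 in WT KPC, 15 in FoxP1SkmKO control, and 15 in FoxP1SkmKO KPC mice. Of all genes with varying values 4.92%, 4.22%, 4.07%, and 2.63% passed it in the same order of groups. The 8 include *Rorb* and *Fbxl21*, which averaged at most 0.025 FPKM in any group and did not pass the filter on low counts, so their rhythm could not be judged. *Arntl*, the activator partner of CLOCK, peaked at CT 22.5 in WT control mice, opposite to the Period genes. *Nr1d1*, the REV-ERB alpha receptor that represses *Arntl*, peaked at CT 28.5, and *Dbp*, a D-box activator, at CT 32.6. *Tef*, a further D-box activator, and *Cry2*, a partner of PER in the repressor complex, peaked with the Period genes at CT 34.2 and CT 34.6. *Cry1*, the other cryptochrome, and *Nfil3*, which competes for the D-box, peaked at CT 19.6 and CT 19.5.

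**Figure D5:**
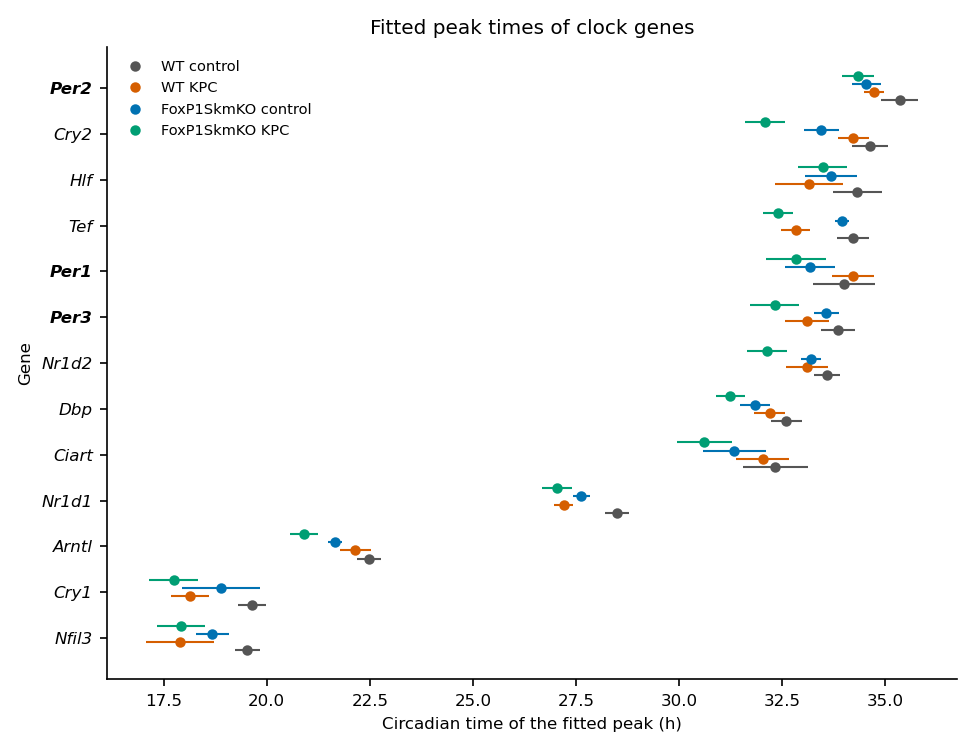
Peak time in circadian hours (horizontal axis) of the 24 h sinusoid for the 3 Period genes and the 10 other clock genes that passed p under 0.01 in all 4 groups; colors mark the 4 groups, points are fitted peaks, bars extend 1 SE to either side, and a peak fitted over 12 h from that of WT control mice is drawn 24 h nearer to it. *Arntl* peaks at CT 22.5 in WT control mice and the Period genes between CT 33.85 and CT 35.35.

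Of the clock genes outside the Period family, 23 passed the filter on low counts. Averaged over the 6 times 2 of them rose in WT KPC mice, *Bhlhe40*, a repressor of CLOCK and BMAL1 (log2 0.30, edgeR adjusted p = 0.0186), and *Timeless* (0.45, adjusted p = 0.0261), and the list's median was 0.04 against 0.00 for all genes. In this contrast 1.79% of all genes tested passed. None of the 23 passed in FoxP1SkmKO KPC against control, in FoxP1SkmKO against WT in either condition, or in the difference of the KPC effect between genotypes. The genotype contrast of control mice in which *Per1* rose by 0.75 had a median of −0.03 over the list. At CT26 *Klf9*, a glucocorticoid-induced clock output, was the 1 gene of the list that passed, with 0.37 in the WT KPC comparison (adjusted p = 0.0107) and 0.31 in the genotype comparison of control mice (adjusted p = 0.0338), which share their controls. Over all genes 4.64% rose in the first of these comparisons and 3.74% in the second, so 1 gene of 23 is near the share of all genes. The list's median was 0.12 in the first comparison and 0.05 in the second, against 0.00 and 0.01 for all genes. *Ciart*, a repressor of CLOCK and BMAL1, differed by 1.04 and 1.45 (adjusted p = 0.227 and 0.0647), the D-box activators *Hlf* by 0.50 and 0.37 (adjusted p = 0.0561 and 0.189) and *Dbp* by 0.46 and 0.43 (adjusted p = 0.141 and 0.176), and *Nr1d2*, *Cry2*, and *Tef* by 0.25, 0.21, and 0.14 in the first and by 0.21, 0.18, and 0.08 in the second, and none of these passed. *Arntl* differed by −0.10 and −0.13. *Nfil3* and *Bhlhe41* of the same list also stood lower in both comparisons. In WT control mice at CT26 *Nfil3* was at 14.1 and 13.2 FPKM, against 9.54 and 12.6 FPKM in WT KPC and 9.83 and 10.6 FPKM in FoxP1SkmKO control mice. *Bhlhe41* was at 15.2 and 14.5 FPKM, against 13.1 and 12.4 FPKM and 12.0 and 12.8 FPKM in the same order.

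Pathways that are known to act on *Per1* from outside the clock were read from 2 further lists. Of 11 glucocorticoid-responsive genes tested 1, *Klf15*, a regulator of amino acid breakdown, rose on average in WT KPC mice (0.32, edgeR adjusted p = 0.0188), where 1.79% of all genes passed, and the list's median was 0.15 against 0.00 for all genes. In FoxP1SkmKO control against WT control mice, where 3.44% of all genes passed and the list's median was 0.14 against 0.00, 2 rose, *Pdk4*, which holds back glucose oxidation (0.76, adjusted p = 0.0184), and *Cdkn1a*, a cell cycle inhibitor (0.79, adjusted p = 0.0219). None of the 11 passed in FoxP1SkmKO KPC against control or in FoxP1SkmKO against WT KPC mice, although all 11 values were above 0 in both, with medians of 0.20 and 0.18 against 0.00 for all genes in each. Of 10 cAMP and immediate early genes 3 rose in the same contrast of control mice (3.44% of all genes passed, list median 0.22 against 0.00): *Fos* (1.21, adjusted p = 0.0013) and *Nr4a1* (0.50), both transcription factors, and the kinase gene *Sik1* (0.69, adjusted p = 0.0019). In KPC mice *Nr4a1* (0.42, adjusted p = 0.0009) and *Jun* (0.24, adjusted p = 0.0413) rose in FoxP1SkmKO against WT (0.32% of all genes passed, list median 0.11 against 0.00), and none passed on average between KPC and control mice of either genotype. The summed level of the immediate early list ran from 79.6 to 103.0 FPKM in WT control mice and from 83.8 to 133.7 FPKM in FoxP1SkmKO control mice. The part of these inputs in the *Per1* values was not tested.

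Genes whose levels ran most like those of a Period gene were found by Pearson r on log2(FPKM + 1) over the 48 libraries, among 10007 genes with a mean of at least 1 FPKM. These values are descriptions, since all genes of a library share its circadian time and depth. For *Per2* they were *Usp2*, a deubiquitinase of the clock (r = 0.959), *Cep85l* (0.906), *Cry2* (0.886), *Per3* (0.886), and *Tef* (0.883). For *Per3* they were *Nr1d2* (0.939), *Tef* (0.931), *Usp2* (0.913), *Cry2* (0.895), and *1810013L24Rik* (0.890). For *Per1* the values were lower, with *Per3* (0.862), *Tob2* (0.861), *Arrdc2* (0.856), *Usp2* (0.847), and *Tef* (0.838). *Arntl* was the lowest gene for *Per2* (−0.929) and *Per3* (−0.928) and the third lowest for *Per1* (−0.804), after *Mras* (−0.823) and *Slc25a36* (−0.809).

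A second reading took only the deviations of each mouse from its group mean, which leaves out time, genotype, and tumor. *Per1* then ran most closely with *Tob2*, an antiproliferative factor (r = 0.899), and *Slc25a25*, a mitochondrial carrier (0.853), followed by *Lrrc57* (0.786), *Tulp3* (0.760), and *Cda* (0.746). The highest values for *Per2* (*Cluap1*, 0.640) and *Per3* (*Ubap2*, 0.706) were lower. Among the Period genes themselves the deviations of *Per1* and *Per2* had r = 0.447, those of *Per2* and *Per3* 0.284, and those of *Per1* and *Per3* 0.202. With 2 mice per group, each group gives 1 independent deviation, 24 in all.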

How the data were processed

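Tibialis anterior RNA was sequenced as poly-A libraries of 48 mice. The authors deposited integer read counts per gene in 12 tables, 1 for each comparison of KPC with control mice, and FPKM values of all genes in 1 table with gene start, end, and length. Submitters' processing notes name HISAT2 2.0.5, DESeq2 1.20.0, and genome build mm39, whereas the published methods name STAR and HTSeq, and the strand setting of the counting is not given in the sources used here. The deposited tables also held size-factor-normalized values and copies of FPKM (96 columns) and the authors' own fold changes and p-values, none of which were used. Genes left out of a comparison table had their counts rebuilt from FPKM and length: 28541 nonzero counts, all whole within 0.01 and at most 1064 counts in any library. The 2 mice of each group differed by more than sampling noise (chi-square of 5.15 to 17.38 per degree of freedom).

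Counts were fitted with edgeR 4.0.16 (R 4.3.3) in 1 quasi-likelihood model of 48 libraries with 24 group coefficients, TMM scaling, and the default filter on low counts (15637 genes). P-values were Benjamini-Hochberg adjusted over all genes tested, and adjusted p under 0.05 passed; all adjusted p-values of differences come from this test unless DESeq2 1.42.0 is named. Intervals used the t distribution with 32.6 degrees of freedom. The spread is that between mice, with 2 per group. Rhythm was fitted as a 24 h sinusoid on FPKM in the 12 mice of each genotype and condition. A difference in rhythm was tested in edgeR on cosine and sine terms. The scripts were tested on simulated data. Named genes were the Period genes, fixed lists of clock, glucocorticoid-responsive, and immediate early genes, and the 5 highest and 3 lowest correlations with each Period gene. The Period genes and the lists were chosen with earlier results of these data known. Alternatives were no filter, RLE scaling, DESeq2, a replicate block, 4 libraries only, averages without each time, log2 scales of FPKM, and each library left out.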

Additional observations from a re-analysis of the deposited data

How the results depend on the processing

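All 12 rhythm results of the Period genes passed p under 0.01 on log2(FPKM + 1), on log2(FPKM + 0.1), with edgeR on counts, and with a replicate block, and RLE scaling changed no call (63 of 63 results). The replicate numbers do not pair the mice: deviations of same-numbered KPC and control mice had a median r of −0.00914 in WT and −0.0224 in FoxP1SkmKO mice, with 0 of 6 times over 0.1 in either, and a fit with the replicate number as a block changed no call (87 of 87), the averaged *Per1* difference between KPC and control WT mice being 0.61 (adjusted p = 0.0176) under it. With DESeq2 *Per2* passed for KPC minus control in WT mice on average (0.31, adjusted p = 0.0329), and 50 other results kept their call. In edgeR fits of the 4 libraries of a comparison, the CT26 differences of WT KPC mice were 1.09 for *Per2* (adjusted p = 0.0897) and 0.47 for *Per3* (0.0722), 2 Period calls appeared at other times, and 345 genes passed at CT26.

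Averages without CT26 gave 0.39 for *Per1* between KPC and control WT mice and −0.012 for *Per2* between genotypes in KPC mice. Without CT30 *Per3* was −0.0062 between KPC and control FoxP1SkmKO mice and passed between genotypes in control mice (0.21, adjusted p = 0.0353), where *Per2* passed without CT18 (0.37) and without CT22 (0.37). Genes passing between KPC and control WT mice on average numbered 138 without CT26, 118 without CT30, and 157 without CT34, and between genotypes in control mice 323 without CT18 and 268 without CT38.

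With no filter on low counts the model estimated infinite prior degrees of freedom in place of 8.611, on 33218 genes, and more tests passed. Those on average were *Per2* (0.30) for KPC in WT mice, *Per1* (0.32) for KPC in FoxP1SkmKO mice and (0.29) for the difference between these effects, *Per2* (0.27) and *Per3* (0.16) for genotype in control mice, and *Per1* (0.46) for genotype in KPC mice. At CT26 *Per1* passed for KPC in FoxP1SkmKO mice (0.48), for the difference of effects (1.22), and for genotype in KPC mice (0.64), as did *Per3* for the last (0.52). A difference in rhythm between genotypes in control mice passed for *Per1* and *Per2* (adjusted p = 0.00526 and 0.00258). Calls at times other than CT26 numbered 3, 3, 3, and 2 for KPC in WT, KPC in FoxP1SkmKO, genotype in control, and genotype in KPC mice, and the genes passing on average were 794 for KPC in WT and 933 for genotype in control mice.

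Leaving out 1 library at a time left 1355 results the same, where a result is a call, a peak time, or a count of genes. Another 33 became weaker, each a lost call or a clearly smaller count of genes, and 9 gained a call. In 3 results the estimate changed its sign, and none of these passed before or after. On average *Per1* and *Per2* ran from 0.50 to 0.74 and from 0.23 to 0.40 for KPC in WT mice (*Per1* lost its call without the second WT KPC mouse of CT38, 0.58, adjusted p = 0.0505), *Per2* and *Per3* from 0.19 to 0.37 and from 0.14 to 0.19 for genotype in control mice, and *Per1* from 0.36 to 0.56 for genotype in KPC mice. At CT26 *Per1*, *Per2*, and *Per3* ran from 1.04 to 2.14, from 0.63 to 1.69, and from 0.36 to 0.54 for KPC in WT mice and from 1.59 to 2.06, from 1.04 to 2.09, and from 0.57 to 0.75 for genotype in control mice. The others at CT26 were *Per1* from −0.10 to 0.89 and *Per2* from −0.073 to 0.35 for KPC in FoxP1SkmKO mice, *Per3* from −0.062 to 0.40 for the difference of effects, and *Per3* from 0.26 to 0.73 for genotype in KPC mice. Gene counts ran from 75 to 412 and from 86 to 1362 for KPC in WT mice on average and at CT26, and from 303 to 760 and from 43 to 1208 for genotype in control mice. The rhythm of *Per1* in WT control mice ran from p = 0.000421 to 0.0104 (F test of the sinusoid, not exact), the last without the second mouse of CT34. The cause of these changes was not tested. At CT26 the SE of KPC minus control in WT mice was 0.36 for *Per1*, 0.28 for *Per2*, and 0.13 for *Per3*.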
